A study of Mus musculus with 57 samples.

Results

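The genes described here are 28 mouse genes of cholesterol synthesis and sterol regulation, followed through RNA sequencing of 57 samples of the embryonic salivary gland. They were given as a list: 8 genes of the mevalonate part of the pathway, 11 of the squalene and sterol part, 4 regulators, and 5 genes that move sterols or limit their uptake. Symbols were matched to the genes of 5 count tables. All 28 were found among the 35275 genes of the tables for glands and for end buds, the 54532 of the TORIN1 table and the 53608 of the KO table, and 20 among the 5171 genes used of the culture table. All of those found passed the filter on low counts in each table. The culture table gives no value for Ggps1, Hsd17b7, Mvd, Mvk, Mylip, Scap, Srebf2 and Stard4.

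Cells build cholesterol from acetyl-CoA. The mevalonate part makes isoprene units and joins them to farnesyl diphosphate, from which prenyl groups and squalene are made, and the sterol part folds squalene into lanosterol and trims it to cholesterol. When sterols in the endoplasmic reticulum are low, the escort protein SCAP carries the membrane-bound factor SREBP-2, encoded by Srebf2, to the Golgi, where proteases release its active part. INSIG proteins hold SCAP back when sterols are plentiful. Sterol-loaded cells instead use liver X receptors, whose target genes include Abca1, Abcg1 and Mylip. The kinase mTOR, the target of the inhibitor TORIN1, is known to promote SREBP activity in several cell types.

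Of the samples, 24 were glands taken directly from wild-type embryos at embryonic days 13 to 18 (E13 to E18), 4 at each day. Another 11 were wild-type end bud epithelia, the tips that later form the secretory acini, left untreated or exposed for 4 h to NRG1 (neuregulin 1, which binds the receptor ERBB3). Under the title E13 there are 3 controls and 3 treated samples, and under E14 there are 2 controls and 3 treated ones. A further 8 were wild-type epithelia labelled E13 plus 72 h, with 4 given TORIN1 and 4 its vehicle DMSO, and 6 were wild-type E13 epithelia kept with NRG1 for 2, 3 or 4 days, with 2 samples a day. The last 8 were untreated E16 glands, 4 labelled wild type (WT) and 4 labelled Erbb3 knockout (KO). Strain, the kind of Erbb3 allele, doses and whether NRG1 was in the TORIN1 and DMSO cultures are facts that the sources used here leave out. Nor do they say whether replicates came from separate litters, and p-values then measure sample-to-sample spread that could be partly technical.

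Total counts per sample were 13033868 to 25935489 for the stage series, 16027377 to 26306020 for end buds, 16318997 to 19671988 for TORIN1 and DMSO, and 8913271 to 11890488 for KO and WT. Levels are CPM (counts scaled to a common library total after TMM scaling), printed as mean ± SD, and they are compared only within a table. The gland sample E18 D stood apart, with a TMM factor of 0.701 against 0.864 to 0.894 in the other E18 samples, a summed level of 9 mesenchyme markers of 4200 CPM against 8467 to 10482, and of 9 epithelial markers of 6200 CPM against 3686 to 3852. The stage field of the buds titled E14 reads E13 plus 4 h (for NRG1 C, E13 plus 72 h), and here titles decide the group. Between E13 and E18 the summed epithelial markers of whole glands went from a range of 888 to 1030 CPM to one of 3686 to 6200, and the mesenchyme markers from 12977 to 13151 down to 4200 to 10482. The sum of 7 macrophage markers went from a range of 57.6 to 74.5 CPM to one of 304 to 444, that of 6 neuron markers from 244 to 297 down to 57.2 to 117, that of 5 skeletal muscle markers from 105 to 345 down to 8.41 to 101, and that of 4 adipocyte markers from 0.177 to 0.434 up to 2.49 to 60.0. The sums of endothelial, Schwann cell and erythroid markers overlapped between these stages. In these bulk samples, fewer cells of a type and less RNA per cell cannot be told apart.

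The first question was how end buds respond to 4 h of NRG1. In E13 buds the sterol pathway rose nearly as a whole: 20 of the 28 genes were higher and 4 were lower. A gene was called higher or lower at a Benjamini-Hochberg adjusted p under 0.05 from edgeR's quasi-likelihood test over all genes. Of all 16180 genes tested, 23.1% were called higher and 19.3% lower. The median log2 fold change of the 28 genes was 0.66, against -0.02 for all genes. The summed level of the 19 enzymes was 839 to 891 CPM in the 3 control samples and 1707 to 1839 CPM in the 3 NRG1 samples.

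The sterol part held the gene with the largest log2 fold change of the list. Msmo1 (ENSMUSG00000031604, chr8:64718139-64733792 on GRCm38) encodes the C4-methyl sterol oxidase. It had 11.1, 10.3 and 12.4 CPM in the E13 control samples and 71.7, 76.1 and 80.8 CPM with NRG1. The groups lay far apart, a fold of 6.75 and a log2 fold change of 2.75 ± 0.12 (SE, adjusted p = 2e-09). Hsd17b7, a sterol reductase that works in the same demethylation sequence, had 10.3, 11.5 and 9.97 CPM in control and 31.6, 29.5 and 36.8 CPM with NRG1 (log2 1.63 ± 0.13, adjusted p = 2.26e-07). Sqle, the squalene epoxidase and a rate-controlling step, had 82.9, 72.3 and 86.5 CPM in control and 232, 235 and 246 CPM with NRG1. Its lowest treated sample stood above every control sample, a log2 change of 1.56 ± 0.07 (adjusted p = 2.39e-09). Cyp51, the lanosterol demethylase, rose by 1.59 ± 0.08, and Fdft1, which makes squalene, by 1.13 ± 0.07. Smaller rises were measured for Nsdhl (0.86 ± 0.09) and Lss, which closes the sterol rings (0.83 ± 0.07). Sc5d (0.70 ± 0.08), Dhcr7 (0.62 ± 0.10) and Tm7sf2 (0.55 ± 0.09), a desaturase and sterol reductases, also rose. In all, 10 of 11 genes of the sterol part rose. The exception was Ebp, the sterol isomerase, with 24.5 ± 0.632 CPM in control and 24 ± 1.57 with NRG1 (n = 3 each, log2 -0.03 ± 0.11, adjusted p = 0.86).

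In the mevalonate part 6 of 8 genes rose. Idi1 (ENSMUSG00000058258, chr13:8885501-8892451 on GRCm38) encodes the isopentenyl diphosphate isomerase. It had 12.6, 13.9 and 14 CPM in E13 control buds and 46.6, 45.4 and 45.2 CPM with NRG1. All treated samples were above all controls, with a log2 change of 1.76 ± 0.10 (adjusted p = 7.21e-09). Hmgcs1 (ENSMUSG00000093930, chr13:119690379-119708260 on GRCm38) encodes the HMG-CoA synthase that feeds the pathway. It had 156, 174 and 184 CPM in control and 369, 344 and 367 CPM with NRG1 (log2 1.07 ± 0.09, adjusted p = 2.65e-07). Mvd, the mevalonate diphosphate decarboxylase, rose by 1.19 ± 0.08 and Fdps, the farnesyl diphosphate synthase, by 1.12 ± 0.11. The rises of Mvk, the mevalonate kinase (0.55 ± 0.12), and Acat2, the cytosolic acetyl-CoA acetyltransferase (0.53 ± 0.07), were smaller. Pmvk, the phosphomevalonate kinase, measured 0.18 ± 0.08 (adjusted p = 0.0772). Ggps1, which makes geranylgeranyl diphosphate outside the route to sterols, measured 0.18 ± 0.09 (adjusted p = 0.148).

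Among the regulators, Insig1 (ENSMUSG00000045294, chr5:28071363-28078662 on GRCm38) is itself a known SREBP target. It had 22.7, 20.3 and 24.4 CPM in E13 control buds and 69.1, 59.9 and 72.5 CPM with NRG1. The groups did not overlap (log2 1.58 ± 0.09, adjusted p = 2e-08). Its paralog Insig2 measured -0.03 ± 0.09 on the log2 scale (adjusted p = 0.815), with 27.4 ± 2.42 and 26.8 ± 1.35 CPM. Srebf2 rose from 327 ± 17.1 to 427 ± 21.4 CPM (0.38 ± 0.06, adjusted p = 0.000166) and Scap from 105 ± 3.06 to 124 ± 0.314 CPM (0.24 ± 0.06, adjusted p = 0.00647).

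The genes of sterol movement divided. Stard4, a cytosolic sterol carrier and known SREBP-2 target, had 46.9, 42.7 and 56.4 CPM in control and 106, 96.5 and 103 CPM with NRG1 (log2 1.06 ± 0.09, adjusted p = 6.52e-07). The other 4 fell. Abca1 (ENSMUSG00000015243, chr4:53030787-53159895 on GRCm38) encodes a cholesterol exporter. It had 33.7, 38.6 and 39.2 CPM in control and 19.5, 18.2 and 15.5 CPM with NRG1 (-1.07 ± 0.10, adjusted p = 1.21e-06). Mylip, a ubiquitin ligase that removes lipoprotein receptors, had 29.2, 31.4 and 27.7 CPM in control and 11.7, 12.3 and 16.8 CPM with NRG1 (-1.11 ± 0.14, adjusted p = 3.2e-05). Every treated sample was below every control sample for both. Npc1, which moves cholesterol out of lysosomes, fell by 0.56 on the log2 scale (SE 0.07) and Abcg1, another exporter, by 0.54 (SE 0.13).

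End buds titled E14 gave the same picture, measured against their own controls. There 21 of 28 genes were higher and 4 lower, against 20.2% and 16% of all genes, with a median log2 change of 0.79 against 0.02. The 20 genes that rose at E13 all rose at E14, the further gene was Pmvk (0.31 ± 0.09, adjusted p = 0.0152), and the 4 that fell were the same. Msmo1 rose from 18.2 and 12.8 CPM in the 2 control samples to 80.9, 94.5 and 83.8 CPM (log2 2.48 ± 0.13, adjusted p = 7.69e-08). Hsd17b7 and Idi1 each rose by 1.87 on the log2 scale (SE 0.15 and 0.11). Insig1 rose by 1.55 ± 0.11 and Abca1 fell by 0.87 (SE 0.11). The call of Pmvk is lost without control B, NRG1 B or NRG1 C, and that of Mylip (-0.56 ± 0.15) without control B. Across the 28 genes the log2 changes at E13 and E14 had a Pearson r of 0.969, and across all 16180 genes 0.627, a description over genes, which are not independent replicates. The E14 samples were not epithelium alone. Their 9 mesenchyme markers summed to 1535 to 5017 CPM in controls and 3633 to 4534 CPM with NRG1. At E13 these sums were 201 to 582 and 360 to 461 CPM. The epithelial sums at E14 were 4066 to 4335 and 3855 to 4205 CPM. The 7 endothelial markers summed to 188 to 304 and 205 to 275 CPM at E14, against 4.43 to 17.9 and 10.9 to 19.6 CPM at E13. Their part in the E14 response was not tested.

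The difference between the NRG1 responses at E14 and E13 was itself tested and no gene of the 28 was called, against 2.27% of all genes (6 of the 28 at an unadjusted p under 0.05, and 0 called by DESeq2). The differences ran from -0.33 ± 0.14 for Stard4 to 0.55 ± 0.21 for Mylip on the log2 scale. Without E14 control B, 4 genes were called higher (Acat2, Fdps, Mvk and Mylip) and 1 lower (Npc1). Among control buds, 4 genes were higher at E14 than at E13 and 2 lower, against 14.4% and 9.2% of all genes. The higher ones were Abca1 (0.62 ± 0.11), Insig1 (0.47 ± 0.11), Msmo1 (0.45 ± 0.14) and Stard4 (0.38 ± 0.10), and the lower ones Acat2 (-0.36 ± 0.08) and Pmvk (-0.33 ± 0.09). Without control E14 B the counts were 1 higher and 3 lower, and without E13 control A 2 and 1. Without E13 control B they were 2 and 2, and in a fit of the control buds alone 2 and 1. The 2 E14 control samples differed in mesenchyme markers, summed over 9 genes to 1535 and 5017 CPM against 201 to 582 in E13 controls, and their part in these differences was not tested.

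Other readings moved with NRG1 in the same samples. Etv5, a transcription factor gene known to respond to ERK signalling, went from 3.25 to 7.20 CPM in E13 controls to 439 to 487 CPM with NRG1. The summed level of 6 acinar markers went from 118 to 146 CPM in E13 controls to 939 to 978 CPM, and in E14 buds from 196 to 269 CPM to 762 to 830 CPM. At most 1 of those 6, Bpifa2, was at 0 in a sample. The epithelial sum overlapped between control (3368 to 4094 CPM) and NRG1 (3635 to 4035 CPM) at E13. The part of these shifts in the sterol genes was not tested.

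**Figure D1:**
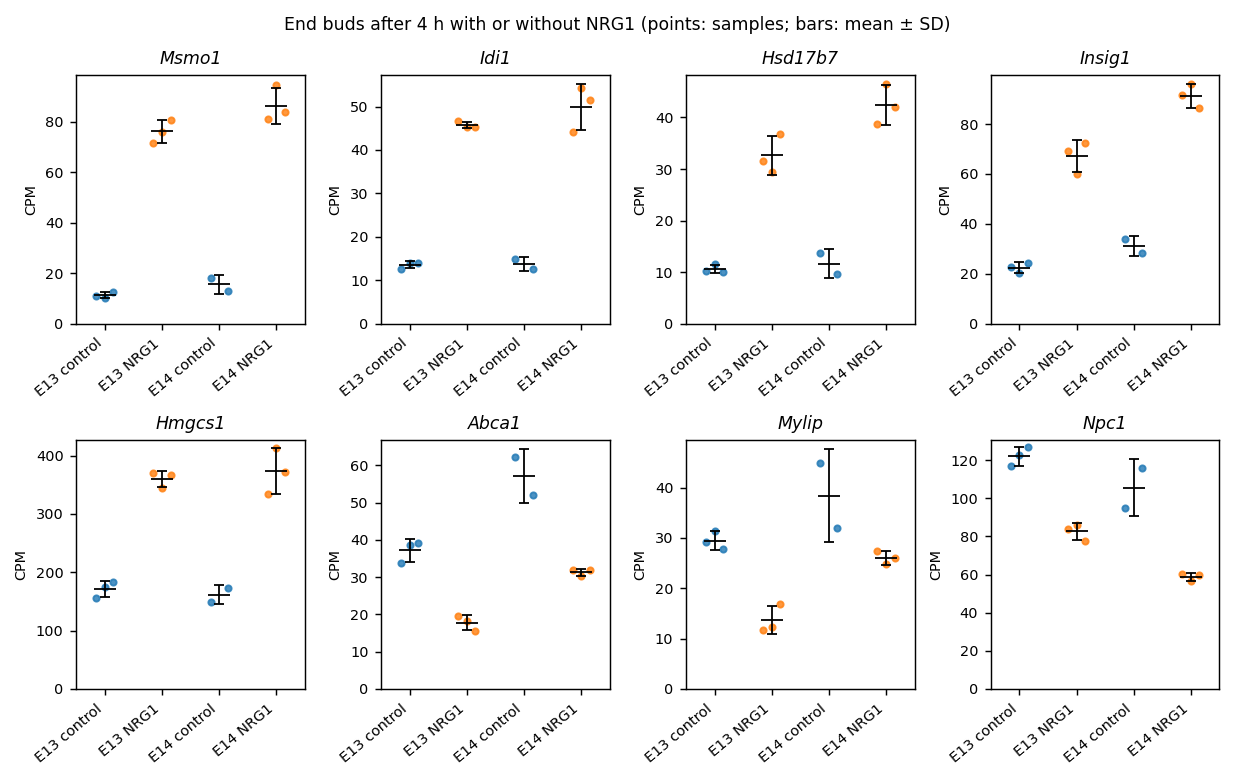
CPM of 8 genes in each end bud sample (points) by group, with the group mean and SD (bars, 3 samples, or 2 for E14 control). The upper row and Hmgcs1 sit higher in every NRG1 sample than in every control of the same title, and Abca1, Mylip and Npc1 sit lower.

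Since so many of these genes moved together, their promoters were read for known motifs. A RefSeq window on GRCm38.p6 from 250 bases before to 50 after the annotated start was found for 22 of the 28 genes (none for Abcg1, Fdft1, Fdps, Npc1, Sqle and Stard4). The sterol regulatory element, searched on both strands as TCACNCCAC or TCACCCNAC (the 2 forms share matches), was found in the windows of 2 of these 22 genes, or 9.09%, and in 1.93% of the 27025 genes with a window. CCAAT, the core of the NF-Y site, which can stand beside such elements, was found in 19 of 22, or 86.4%, against 41.1% of all genes. The GC box GGGCGG was found in 20 of 22, or 90.9%, against 38.2%, and the E-box CACGTG in 6 of 22, or 27.3%, against 8.09%. The shares of all genes cover every gene with a window, expressed here or not, while the 22 all passed the filter on low counts. No genes matched for expression or base content were compared, so these shares are not shown to be particular to sterol genes. A match is a description of these letters and not a site, and the absence of one says only that the letters are not in this window. The 3 genes without CCAAT were Abca1, Acat2 and Scap.

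The windows below run 5′ to 3′ on the gene's strand. They are shown for the 2 genes with the element (Hmgcs1 and Nsdhl), for the genes with the largest NRG1 response in the sterol part and among regulators (Msmo1 and Insig1), and for Abca1, which fell and has neither motif. Capitals mark the sterol element and CCAAT on either strand (ATTGG when reversed).
Hmgcs1, chr13:119690101-119690400, plus strand: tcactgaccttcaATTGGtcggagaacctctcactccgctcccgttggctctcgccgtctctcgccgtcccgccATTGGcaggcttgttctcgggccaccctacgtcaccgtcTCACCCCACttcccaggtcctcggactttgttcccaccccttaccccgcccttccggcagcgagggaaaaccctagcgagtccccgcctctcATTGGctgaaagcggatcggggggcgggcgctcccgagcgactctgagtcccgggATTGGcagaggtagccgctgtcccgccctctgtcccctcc
Nsdhl, chrX:72918271-72918570, plus strand: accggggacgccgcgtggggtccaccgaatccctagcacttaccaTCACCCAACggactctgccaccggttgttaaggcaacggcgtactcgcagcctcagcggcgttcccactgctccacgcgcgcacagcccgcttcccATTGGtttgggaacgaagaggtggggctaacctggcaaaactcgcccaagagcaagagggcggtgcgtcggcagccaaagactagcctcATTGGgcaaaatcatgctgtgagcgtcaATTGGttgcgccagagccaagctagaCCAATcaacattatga
Msmo1, chr8:64733529-64733828, minus strand: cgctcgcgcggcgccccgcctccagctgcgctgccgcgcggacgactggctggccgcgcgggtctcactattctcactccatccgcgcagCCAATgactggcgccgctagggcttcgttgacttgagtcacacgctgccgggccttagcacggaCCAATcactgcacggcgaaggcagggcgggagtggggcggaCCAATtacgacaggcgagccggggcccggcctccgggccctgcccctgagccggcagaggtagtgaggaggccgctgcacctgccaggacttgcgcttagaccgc
Insig1, chr5:28071162-28071461, plus strand: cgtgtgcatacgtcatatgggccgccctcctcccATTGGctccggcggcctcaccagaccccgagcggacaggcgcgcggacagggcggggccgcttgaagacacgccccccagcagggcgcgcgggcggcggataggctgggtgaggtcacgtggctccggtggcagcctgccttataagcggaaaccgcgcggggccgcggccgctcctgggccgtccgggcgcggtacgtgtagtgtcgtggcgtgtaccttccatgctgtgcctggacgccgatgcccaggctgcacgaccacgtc
Abca1, chr4:53159846-53160145, minus strand: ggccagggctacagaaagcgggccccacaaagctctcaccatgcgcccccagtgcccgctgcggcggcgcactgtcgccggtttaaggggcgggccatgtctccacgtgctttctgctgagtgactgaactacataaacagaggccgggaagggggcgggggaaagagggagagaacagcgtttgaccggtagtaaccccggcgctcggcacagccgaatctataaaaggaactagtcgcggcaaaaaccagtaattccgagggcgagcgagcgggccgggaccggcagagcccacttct

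In Hmgcs1 the element TCACCCCAC begins 137 bases before the start, among 4 CCAAT matches. In Nsdhl it reads TCACCCAAC, 205 bases before the start, and the window also holds 4 CCAAT matches. Hmgcs1 and Nsdhl changed by 1.07 and 0.86 with NRG1 at E13, less than Msmo1 (2.75), which has 3 CCAAT matches and no element in its window.

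Longer NRG1 exposure was followed in E13 epithelia from day 2 to day 4, without untreated cultures of the same age, so changes are between days. Of the 20 genes measured, 16 were higher at day 4 than at day 2 and 3 lower, against 48.7% and 43% of the 5171 genes tested, with a median log2 change of 0.44 against 0.18. The sources used here do not say how the genes of that table were chosen. Insig1 had 506 and 530 CPM at day 2, 631 and 762 at day 3 and 1272 and 1206 at day 4. Its samples are ordered by day without overlap, and the change from day 2 to day 4 was 1.26 ± 0.09 on the log2 scale (adjusted p = 0.000103). Dhcr7, the last reductase on one route to cholesterol, had 253 and 256 CPM at day 2, 346 and 377 at day 3 and 425 and 440 at day 4 (0.77 ± 0.06, adjusted p = 0.000138). Nsdhl rose by 0.75 ± 0.08 and Ebp by 0.67 ± 0.09. The other 12 that rose changed by 0.29 to 0.57, and Msmo1 was not called (0.25 ± 0.11, adjusted p = 0.0678).

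The exporters fell over the same days. Abcg1 had 94.5 and 93.5 CPM at day 2, 61.0 and 60.0 at day 3 and 32.2 and 40.9 at day 4, each day below the one before (-1.36 ± 0.12, adjusted p = 0.000164). Abca1 had 144 and 150 CPM at day 2 and 66.7 and 69.9 at day 4 (-1.11 ± 0.13, adjusted p = 0.000519), and Npc1 fell by 0.53 (SE 0.12). By single steps, 7 genes were higher and 2 lower at day 3 than at day 2 (24% and 25.3% of all genes), and 12 were higher and 3 lower at day 4 than at day 3 (24.6% and 22%). The step counts rest on single samples: from day 2 to 3 they were 0 and 0 without day 2 sample 1, 2 and 0 without day 2 sample 2, and from day 3 to 4 they were 3 and 2 without day 3 sample 1 and 3 and 3 without day 4 sample 2. In fits of the compared days alone they were 7 and 1, and 7 and 3. A group cut to 1 sample borrows its spread from the others. The sum of 6 acinar markers went from 9983 to 11745 CPM at day 2 to 96443 to 97992 CPM at day 4. Most of it was Smgc, with means of 7429 CPM at day 2 and 89892 CPM at day 4, and the means of the other acinar markers rose too. The macrophage sum over the 6 markers in that table went from 14.7 to 24.9 CPM to 47.5 to 133 CPM, that of 8 epithelial markers from 9602 to 9767 to 11218 to 12520 CPM, and Sox10 from 356 to 386 CPM to 33.7 to 35.3 CPM. Their part in these changes was not tested.

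The next question was what blocking mTOR does in epithelium kept for 72 h. With TORIN1, 17 of the 28 genes were lower and 1 was higher than with DMSO, against 3.36% and 2.46% of the 14985 genes tested. The median log2 change was -0.81, against 0.02 for all genes. The summed level of the 19 enzymes was 2829 to 3065 CPM in the 4 DMSO samples and 1223 to 1847 CPM in the 4 TORIN1 samples.

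Insig1 changed most of the 28. It had 827, 867, 733 and 502 CPM with DMSO and 181, 276, 87.3 and 148 CPM with TORIN1. The highest TORIN1 sample was below the lowest DMSO sample, and the log2 change was -2.08 ± 0.32 (adjusted p = 0.0107), a level of 0.236 times that with DMSO. Insig2 had 61.6 ± 8.26 and 49.5 ± 6.91 CPM (-0.31 ± 0.13, adjusted p = 0.193). Srebf2 (-0.35 ± 0.09, adjusted p = 0.057) and Scap (0.09 ± 0.10, adjusted p = 0.631) were not called either.

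In the sterol part 9 of 11 genes fell. Nsdhl, a sterol dehydrogenase, had 106, 108, 104 and 94.5 CPM with DMSO and 35.8, 58.0, 32.0 and 37.3 CPM with TORIN1 (log2 -1.34 ± 0.17, adjusted p = 0.00655). Lss had 321, 328, 314 and 324 CPM with DMSO and 103, 196, 121 and 137 CPM with TORIN1. The DMSO samples were close together and the TORIN1 samples spread, all of them lower (-1.21 ± 0.18, adjusted p = 0.00892). Msmo1 had 183, 171, 181 and 192 CPM with DMSO and 86.7, 111, 72.3 and 84.9 CPM with TORIN1 (-1.03 ± 0.13, adjusted p = 0.00529). Cyp51 (-1.12 ± 0.15), Dhcr7 (-1.01 ± 0.14), Tm7sf2 (-0.85 ± 0.13), Sqle (-0.81 ± 0.13), Sc5d (-0.73 ± 0.10) and Fdft1 (-0.63 ± 0.11) fell as well. Not called were Hsd17b7 (-0.82 ± 0.25, adjusted p = 0.0852) and Ebp (-0.46 ± 0.18, adjusted p = 0.164).

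In the mevalonate part 7 of 8 genes fell. Hmgcs1 had 524, 467, 477 and 537 CPM with DMSO and 208, 308, 211 and 259 CPM with TORIN1, with no overlap (-1.02 ± 0.14, adjusted p = 0.00712). Pmvk had 101, 101, 89.3 and 82.8 CPM with DMSO and 55.5, 41.7, 24.4 and 30.1 CPM with TORIN1 (-1.30 ± 0.23, adjusted p = 0.0161). Idi1 (-1.19 ± 0.25), Mvd (-0.95 ± 0.18), Fdps (-0.89 ± 0.14), Acat2 (-0.86 ± 0.18) and Mvk (-0.70 ± 0.13) completed the group. The Fdps counts are low in this table, 286 to 324 with DMSO and 137 to 192 with TORIN1, or 17.2 ± 0.881 and 9.27 ± 1.52 CPM. Fdps had 47.1 to 176 CPM among end buds, 78.7 to 302 CPM in the stage series and 3.27 to 8.18 CPM in the KO and WT libraries. The sources used here do not say whether these tables were counted alike, so its fold is read within each table alone. Ggps1 again was not called (-0.07 ± 0.11, adjusted p = 0.766).

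Of the movement genes Abcg1 rose, with 22.0, 24.6, 24 and 19.7 CPM with DMSO and 54.9, 35.3, 33.1 and 35.4 CPM with TORIN1 (0.81 ± 0.17, adjusted p = 0.0286). Abca1 measured 0.59 ± 0.18 (adjusted p = 0.0878), with overlapping groups of 49.8 ± 5.87 and 74.7 ± 17.9 CPM, and Stard4 -0.67 ± 0.18 (adjusted p = 0.0573). Npc1 (-0.15 ± 0.16, adjusted p = 0.627) and Mylip (-0.13 ± 0.15, adjusted p = 0.654) were not called.

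Leaving out 1 sample in turn gave 8 to 20 genes lower: 8 without DMSO A, 11 without DMSO B, DMSO C or TORIN1 D, and 15 to 20 otherwise. Cyp51, Dhcr7, Hmgcs1, Insig1, Lss, Msmo1, Nsdhl and Sc5d were called in all 8 such fits, and the call of Abcg1 was lost in 5. The sum of 6 acinar markers was 33990 to 52429 CPM with DMSO and 9533 to 24613 CPM with TORIN1, none of them at 0, while the sum of 9 epithelial markers was 6460 to 6759 and 5618 to 7577 CPM. Most of the acinar sum was the single gene Smgc, with means of 42830 CPM with DMSO and 14722 CPM with TORIN1. The sum therefore mainly follows that gene. The sum of 5 Schwann cell markers was 12 to 24.2 CPM with DMSO and 25.0 to 70.2 CPM with TORIN1, with 1 or 2 of the 5 at 0 in DMSO samples and at most 1 with TORIN1. Most of it was Sox10, a transcription factor gene that was called higher (1.67 ± 0.39, adjusted p = 0.0401, groups overlapping). Sox10 was also counted in control end bud epithelium at E13 (665 to 717 CPM). That level comes from another set of libraries and is not compared with those here. The part of these shifts in the sterol genes was not tested.

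Set side by side, the calls of the 28 genes under the 2 treatments were largely shared and opposite in direction. Of the 20 genes higher with NRG1 in E13 buds, 16 were lower with TORIN1, which is 80.0% of the former and 94.1% of the 17 lower with TORIN1. The others were Hsd17b7, Scap, Srebf2 and Stard4 on the NRG1 side and Pmvk on the TORIN1 side. Of all genes tested, 23.1% were higher with NRG1 at E13 and 3.36% lower with TORIN1. The overlap over all genes was not counted. Over the 28 genes the log2 changes of NRG1 at E13 and of TORIN1 had a Pearson r of -0.711, and over 13827 genes tested in both -0.105. These are correlations over genes of 2 sets of libraries, with no test. The order differed: Msmo1 came first under NRG1, and Insig1 under TORIN1.

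**Figure D2:**
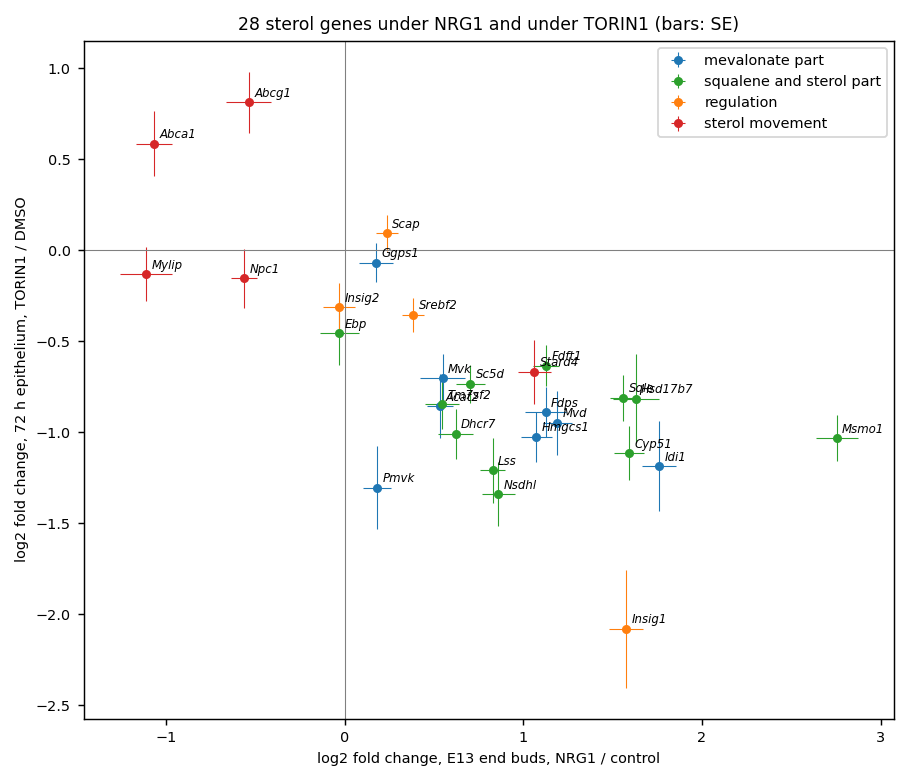
Log2 fold change of each of the 28 genes in E13 end buds with NRG1 against control (horizontal) and in 72 h epithelium with TORIN1 against DMSO (vertical), with SE bars and colours by role. Most enzymes lie at the lower right, higher with NRG1 and lower with TORIN1, with Msmo1 at 2.75 and -1.03 and Insig1 at 1.58 and -2.08; Abca1 and Abcg1 lie at the upper left.

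Through development, 27 of the 28 genes differed among the 6 stages of whole glands, against 82.5% of the 16521 genes tested. The exception was Idi1 (adjusted p = 0.201). From E13 to E18, 16 genes rose and 7 fell, against 36.5% and 36.2% of all genes, and the median log2 change was 0.38 against 0.01. With scaling by library size alone the median of all genes moves to -0.33 and that of the 28 to 0.01, so small changes here depend on the scaling. Without E18 D, 17 genes rose and 8 fell: Mylip (0.46) and Nsdhl (0.45) joined those that rose, Acat2 (-0.29) those that fell, and Mvk was no longer called. The change of Cyp51 then was 0.17. The summed level of the 19 enzymes was 1349 ± 23.8 CPM at E13, 1111 ± 41.8 at E14, 1195 ± 43.6 at E15, 1359 ± 42.7 at E16, 1682 ± 81.1 at E17 and 1657 ± 131 at E18 (n = 4 each).

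The 4 regulators did not move together, and Insig1 had the largest log2 change of the 28 genes between E13 and E18. It had 55.5, 53.1, 54.9 and 58.2 CPM at E13, 39.9, 42.6, 44.6 and 40.1 at E14, and 48.7, 47.3, 45 and 47.8 at E15. It then had 150, 159, 161 and 157 CPM at E16, 284, 306, 238 and 254 at E17, and 464, 409, 409 and 464 at E18. From E15 on, each stage lay wholly above the one before. The change from E15 to E16 was 1.73 ± 0.08 on the log2 scale (adjusted p = 1.06e-13) and that from E13 to E18 2.98 ± 0.08 (adjusted p = 3.13e-19), a fold of 7.87. Per kilobase of exon, Insig1 went from 17.9 CPM at E13, the eighth of the 28 genes, to 141 CPM at E18, the highest. Insig2 rose from 22.5 ± 2.39 to 49.4 ± 5.20 CPM (1.14 ± 0.10, adjusted p = 2.53e-10). Srebf2 (-0.26 ± 0.08) and Scap (-0.30 ± 0.07) were lower at E18 than at E13, shifts smaller than that of the scaling above. With library size alone they measured -0.59 and -0.65, and both were still called.

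In the sterol part 8 of 11 genes were higher at E18 than at E13 and 2 lower. Ebp, which NRG1 did not move past the threshold in end buds, had 13.4, 15, 12.6 and 15 CPM at E13 and 52.6, 44.7, 49.9 and 75.5 CPM at E18. The groups were far apart (1.99 ± 0.14, adjusted p = 7.79e-12), and the largest step was from E14 (15.9 ± 1.48 CPM) to E15 (31.8 ± 2.35 CPM). Dhcr7 rose by 1.00 ± 0.09, from 55.9 ± 3.51 to 111 ± 13.1 CPM. Lss (0.69 ± 0.16), Tm7sf2 (0.67 ± 0.12), Msmo1 (0.56 ± 0.09), Sc5d (0.53 ± 0.10), Cyp51 (0.41 ± 0.13) and Fdft1 (0.35 ± 0.09) were also higher, but with library size alone the change of Fdft1 was -0.01 and Lss, Sc5d and Cyp51 were no longer called. Hsd17b7 fell, with 31.9, 26.8, 30.4 and 29.7 CPM at E13 and 11.5, 13.3, 13 and 6.96 CPM at E18 (-1.40 ± 0.18, adjusted p = 2.75e-07). Sqle was slightly lower (-0.22 ± 0.08, adjusted p = 0.0143), and that call is lost without E13 A or E13 B. Nsdhl was not called (0.21 ± 0.18, adjusted p = 0.305), with 19.3 CPM in E18 D and 47.8 to 56.3 elsewhere at E18. Without E18 D it measured 0.45 (adjusted p = 3.67e-05).

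In the mevalonate part 4 genes were higher and 2 lower. Fdps rose from 108 ± 4.14 CPM at E13 to 241 ± 23 at E18 (1.16 ± 0.09, adjusted p = 8.96e-11), after a low of 84.4 ± 8.28 at E14. Pmvk rose by 1.29 ± 0.18 and Mvd by 0.71 ± 0.16. Mvk was called higher (0.23 ± 0.10, adjusted p = 0.0395), but not without E18 D (0.10, adjusted p = 0.279), E13 A, E13 B or E13 C, and with library size alone it measured -0.13. Hmgcs1 fell, with 284, 262, 276 and 291 CPM at E13 and 208, 223, 172 and 204 CPM at E18 (-0.46 ± 0.09, adjusted p = 4.62e-05), and was lowest at E16 (154 ± 10.7 CPM). Ggps1 fell from 20.7 ± 1.36 to 12.2 ± 1.07 CPM (-0.76 ± 0.10). Idi1 (0.12 ± 0.19, adjusted p = 0.583) and Acat2 (-0.19 ± 0.09, adjusted p = 0.0716) were not called.

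Among the movement genes Stard4 rose from 53.6 ± 5.66 to 112 ± 11.2 CPM (1.06 ± 0.10) and Abcg1 from 7.04 ± 0.750 to 14.7 ± 3.35 CPM (1.06 ± 0.14). Npc1 fell by 1.16 (SE 0.16), from 62.7 ± 2.27 to 28 ± 9.70 CPM. It had 52.9 ± 3.63 CPM at E14 and 29.6 ± 1.46 at E15, so the step between these stages made up most of the fall. Abca1 measured -0.07 ± 0.15 between E13 and E18 (adjusted p = 0.687), with means of 30.0 CPM at E13, 18.4 at E15, 20.5 at E17 and 28.5 at E18. Mylip was not called (0.29 ± 0.14, adjusted p = 0.0759), with 21.2 CPM in E18 D and 36.6 to 41.8 CPM elsewhere at E18.

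**Figure D3:**
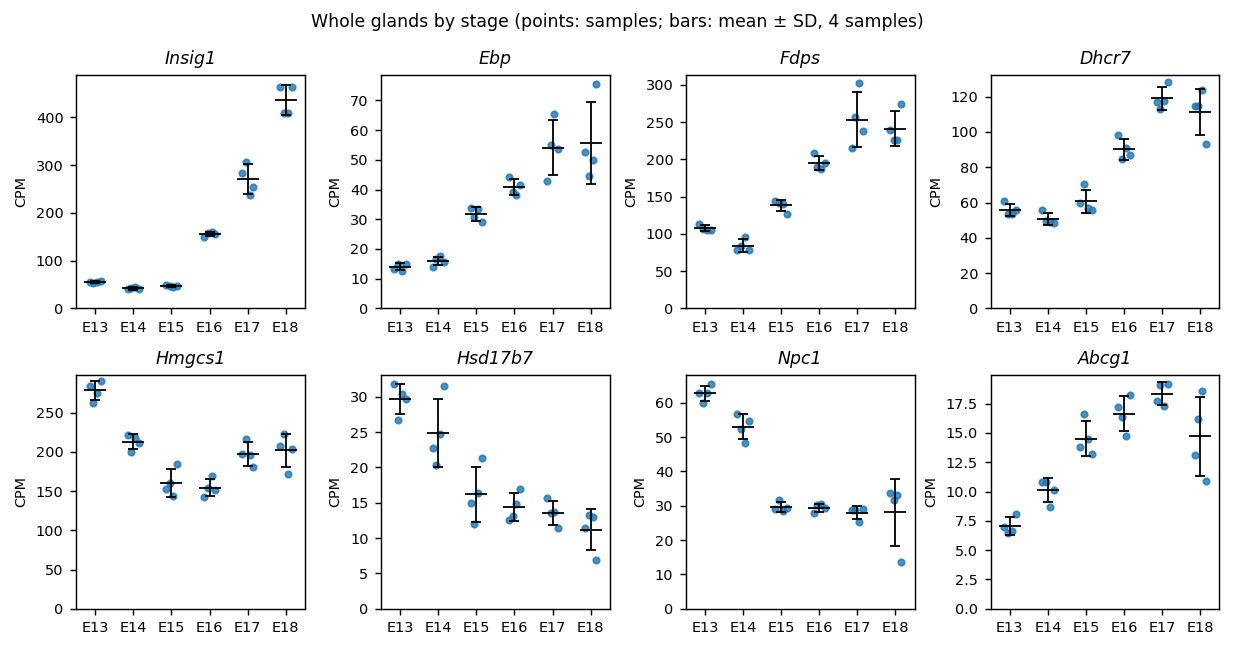
CPM of 8 genes in each whole-gland sample (points) from E13 to E18, with mean and SD of 4 samples (bars). Insig1 climbs from 47.2 CPM at E15 to 436 CPM at E18, Ebp, Fdps and Dhcr7 also end higher than they began, and Hmgcs1, Hsd17b7 and Npc1 end lower; in the Npc1 panel the single low E18 point is sample D.

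Stage by stage the direction changed. From E13 to E14, 1 gene rose and 6 fell, against 11.8% and 7.63% of all genes: Fdft1 (-0.56 ± 0.09), Insig1 (-0.41 ± 0.08), Hmgcs1 (-0.39 ± 0.09), Fdps (-0.35 ± 0.09), Acat2 (-0.30 ± 0.09) and Msmo1 (-0.27 ± 0.09) fell and Abcg1 rose (0.52 ± 0.14). In a fit of E13 and E14 alone, 2 rose and 13 fell, these 7 among them. The call of Msmo1 was lost with any single E13 or E14 sample left out, and that of Acat2 with any of 7 of those 8. From E14 to E15, 10 rose and 8 fell, close to the 24.7% and 25% of all genes, with Ebp (0.99 ± 0.14) and Npc1 (-0.84 ± 0.16) at the ends. From E15 to E16, 9 rose and none fell, against 12.2% and 11.3% (11 of the 28 had an unadjusted p under 0.05; DESeq2 also called 0 lower). They were Insig1, Stard4 (0.85 ± 0.10), Insig2 (0.58 ± 0.10), Dhcr7 (0.57 ± 0.09), Lss (0.54 ± 0.16), Pmvk (0.53 ± 0.17), Fdps (0.50 ± 0.09), Cyp51 (0.35 ± 0.13) and Srebf2 (0.26 ± 0.08). The call of Cyp51 was lost in 7 of the 8 fits without 1 sample of these stages, and that of Pmvk in 4.

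From E16 to E17, 7 rose and none fell, against 3.39% and 2.11% (16 had an unadjusted p under 0.05; DESeq2 also called 0 lower). Insig1 (0.79 ± 0.08), Msmo1 (0.42 ± 0.09), Dhcr7 (0.40 ± 0.09), Fdft1 (0.38 ± 0.09), Fdps (0.38 ± 0.09), Hmgcs1 (0.36 ± 0.09) and Sc5d (0.34 ± 0.10) rose, and 24 of 28 fold changes were above 0, with a median of 0.32 against 0.00 for all genes. This count was 3 without E16 B or E16 D, 8 without E17 A, and 15 in a fit of E16 and E17 alone. From E17 to E18, Insig1 (0.69 ± 0.08) and Abca1 (0.48 ± 0.15) rose and none fell, against 5.91% and 7.09% of all genes (6 had an unadjusted p under 0.05; DESeq2 also called 0 lower). Without E18 D, 6 genes rose (Insig1, Abca1, Insig2, Lss, Mylip and Npc1) and 2 fell (Mvd and Mvk). The call of Abca1 was lost without any other single sample of these stages, and with library size alone 9 genes were lower and 1 higher.

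The summed level of 6 acinar markers went from 587 to 812 CPM at E15 to 16732 to 18847 at E16 and 150361 to 158909 at E18, and epithelial markers from 2271 to 2886 CPM at E15 to 3678 to 4103 at E16. The macrophage sum went from 131 to 154 CPM at E15 to 158 to 166 at E16, and the neuron sum from 78.8 to 106 down to 69.2 to 77.2. Their part in the changes of the sterol genes was not tested.

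The last comparison asked how E16 glands labelled Erbb3 KO differ from those labelled WT. Erbb3 itself had 69.6 to 124 CPM in the WT libraries and 32.0 to 73.6 CPM in those labelled KO. The ranges overlap, and the change of -0.94 ± 0.29 on the log2 scale was not called (adjusted p = 0.0619), so the directions below are those of the labels. The sources used here do not say which exons were deleted, so counts over the whole gene may include undeleted exons. Of the 28 genes, 7 were lower in the libraries labelled KO and none higher, against 4.2% and 2.83% of the 14991 genes tested (16 had an unadjusted p under 0.05; DESeq2 called 1 higher, Mvk). The median log2 change was -0.38, against -0.04 for all genes.

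Insig1 had 87.4, 62.9, 82.7 and 90.2 CPM in WT and 35.6, 48.3, 52.5 and 48.7 CPM in KO libraries. The groups did not overlap (-0.80 ± 0.16, adjusted p = 0.0311). Idi1 had 23.1, 13.7, 20.2 and 17.7 CPM in WT and 5.07, 4.64, 11.2 and 9.39 CPM in KO libraries (-1.30 ± 0.28, adjusted p = 0.0345), a level of 0.407 times that in WT. Stard4 had 61.2, 48.2, 77.0 and 70.8 CPM in WT and 27.6, 28.1, 39.6 and 36.3 CPM in KO libraries, again without overlap (-0.97 ± 0.18, adjusted p = 0.0255). Lss (-0.66 ± 0.15, adjusted p = 0.0358) and Hsd17b7 (-0.67 ± 0.18, adjusted p = 0.0449) completed the enzymes that fell.

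Abca1 and Mylip, which fell with NRG1 in end buds, were lower here too. Mylip had 28.7, 21.8, 24.4 and 28.6 CPM in WT and 11.4, 13.9, 16.2 and 14.6 CPM in KO libraries (-0.88 ± 0.17, adjusted p = 0.0287). Abca1 had 20.8, 14.3, 31.0 and 21.6 CPM in WT and 9.49, 9.38, 14.5 and 10.3 CPM in KO libraries (-1.01 ± 0.24, adjusted p = 0.0381), and the groups overlap in 1 sample of each. Of the 20 genes higher with NRG1 at E13, 5 were lower in KO libraries (25.0% of the former, 71.4% of the 7). Of all genes tested, 4.2% were lower in KO libraries, and the overlap over all genes was not counted. Over the 28 genes the log2 changes of NRG1 at E13 and of KO against WT had a Pearson r of -0.0425. Over 13969 genes it was 0.103, a description with no test. Msmo1, first under NRG1, had 46.5 ± 14.4 CPM in WT and 33.5 ± 4.13 in KO libraries (-0.47 ± 0.19, adjusted p = 0.12), and WT 1 alone reached 67.9 CPM.

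These calls rest on few samples. No gene was lower without KO 1, KO 2, WT 3 or WT 4, 1 without KO 4 (Stard4), 6 without KO 3 or WT 1, and 10 without WT 2, where Mvd and Mvk were higher. The fold changes moved less, with Insig1 between -0.87 and -0.67 and Stard4 between -1.05 and -0.86 in the 8 fits. The sum of 6 acinar markers was 941 to 2343 CPM in WT and 337 to 580 CPM in KO libraries, and that of 9 epithelial markers 2730 to 3953 and 2157 to 3076 CPM, with none at 0. The sum of 5 Schwann cell markers was 326 to 568 CPM in WT and 624 to 761 CPM in KO libraries, and that of 7 macrophage markers 187 to 218 and 222 to 416 CPM, neither overlapping and with none at 0. Of the Schwann cell list, Fabp7 was called higher (0.94 ± 0.23, adjusted p = 0.0401). Sox10, which made up most of that sum, was not called (0.58 ± 0.19, adjusted p = 0.0685), nor was Foxd3 (0.86 ± 0.32, adjusted p = 0.0964). The part of these shifts in the sterol genes was not tested.

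**Figure D4:**
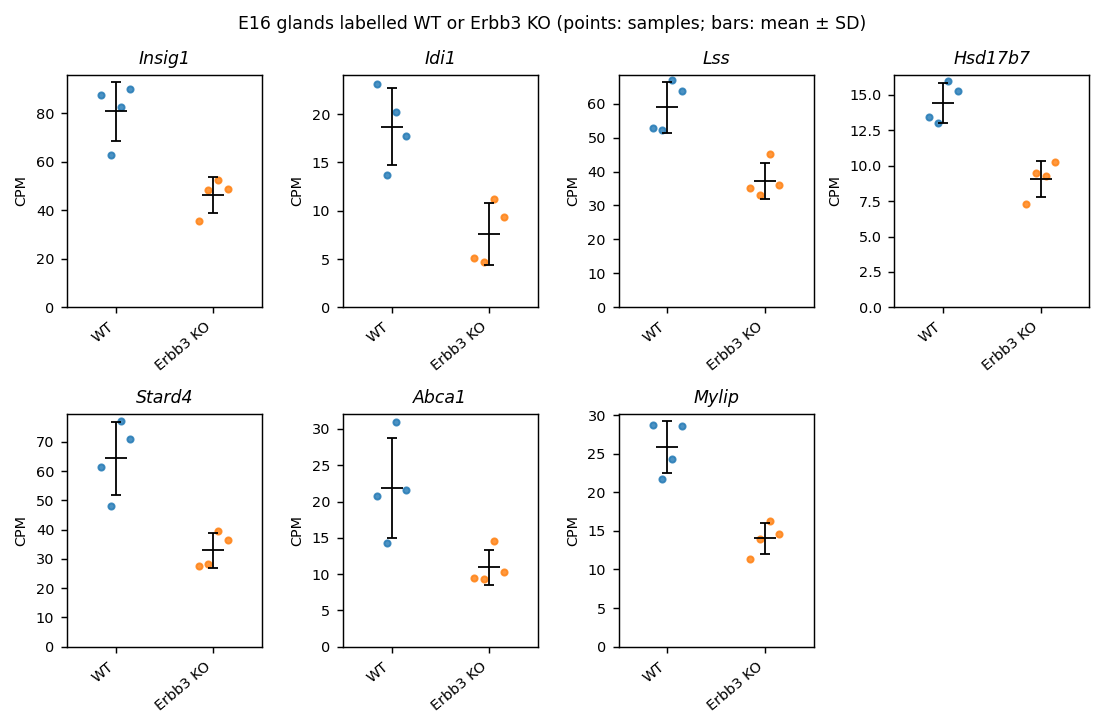
CPM of the 7 genes called lower in E16 glands labelled Erbb3 KO, in each sample (points) with mean and SD of 4 samples (bars). All KO points lie below all WT points except in Abca1, where the highest KO sample (14.5 CPM) passes the lowest WT sample (14.3 CPM). The genes were picked by their calls, so this separation adds no support to those calls, and its share over all genes is not given.

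Across the 5 tables the members differed in how often they moved. Of the comparisons between a pair of groups, Insig1 was called in all but E14 to E15, and Ggps1 only in E14 to E15 and E13 to E18, where it fell. Some counts carry a limit from overlapping annotation, since the sources used here do not state the strand setting of the counting. By exon length, 26.7% of Fdps overlaps Gm43738 and 12.1% of Tm7sf2 overlaps Vps51 on the same strand, and 18.3% of Fdft1 overlaps Ctsb, 13.2% of Scap and 12.1% of Hmgcs1 other genes on the opposite strand.

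**Figure D5:**
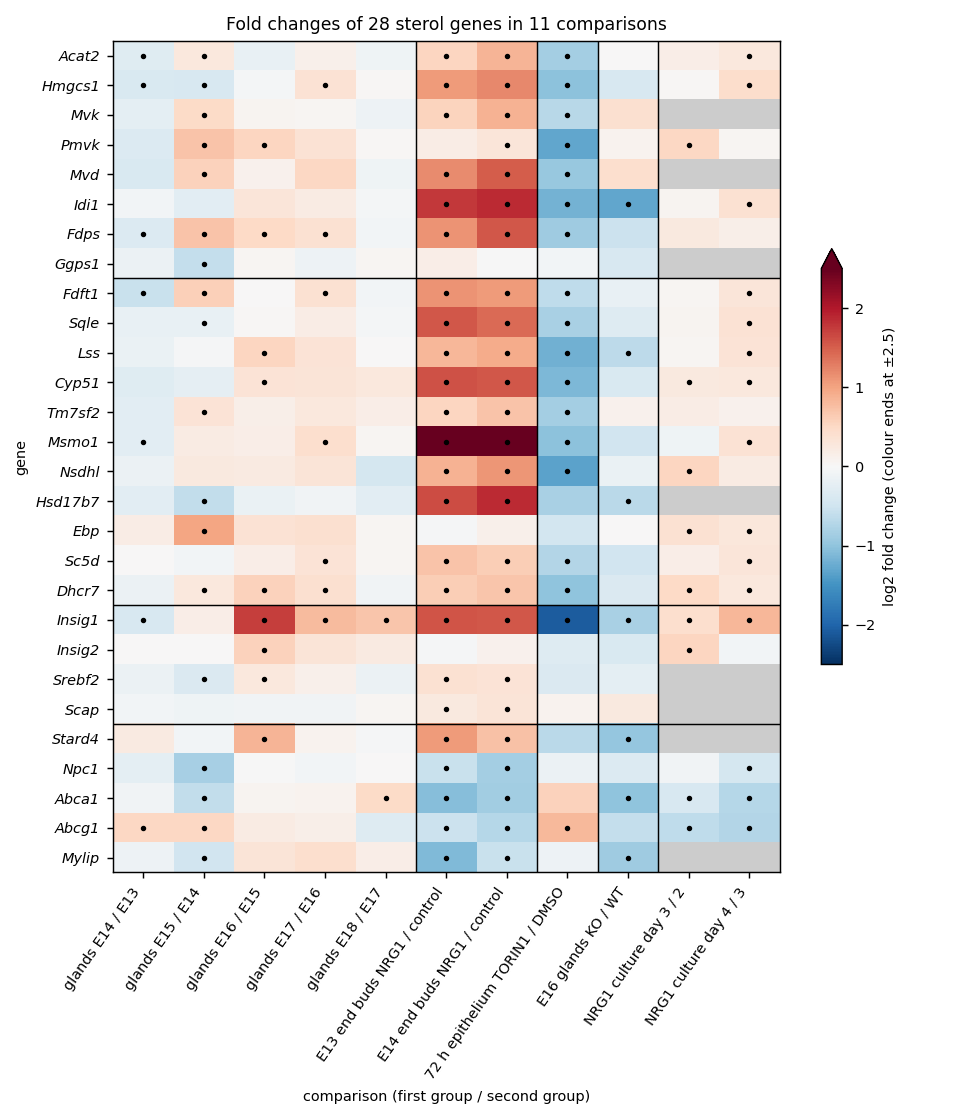
Log2 fold changes of the 28 genes (rows, grouped by role) in 11 comparisons (columns), red for higher and blue for lower in the first-named group, grey where the table lacks the gene, with a dot for an adjusted p under 0.05. The NRG1 columns are mostly red and the TORIN1 column mostly blue, while Ebp, Ggps1 and Insig2 carry no dot in the NRG1, TORIN1 and KO columns.

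Genes next to the pathway were counted from lists. Their counts are read against the shares of all genes called: 23.1% higher and 19.3% lower with NRG1 at E13, 20.2% and 16% at E14, 2.46% and 3.36% with TORIN1, 2.83% and 4.2% in KO libraries, and 36.5% and 36.2% from E13 to E18. Of 10 fatty acid synthesis genes driven by SREBP, 7 rose and 1 fell with NRG1 at E13, 5 rose and 1 fell at E14, 8 fell with TORIN1 and 3 fell in KO libraries. Examples are Elovl6 (1.22 ± 0.15) and Fasn, the fatty acid synthase (1.06 ± 0.07), with NRG1 at E13, and Scd1, a desaturase, with TORIN1 (-2.11 ± 0.27). Their median was 0.43 with NRG1 at E13 and -1.0 with TORIN1, beside -0.02 and 0.02 for all genes. From E13 to E18, however, 2 rose and 6 fell, with Me1 at 1.88 ± 0.13 and Acaca, the acetyl-CoA carboxylase, at -1.49 ± 0.14.

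Of 14 other sterol handling genes, 12 rose and 1 fell from E13 to E18, led by Nr1h3, a liver X receptor (3.30 ± 0.24), and Gramd1b, a sterol transfer protein (2.70 ± 0.16), with a median of 0.89 against 0.01 for all genes. The epithelial, mesenchyme, acinar, macrophage, neuron, skeletal muscle and adipocyte sums of whole glands moved between the same stages, and their part was not tested. With NRG1 at E13, 3 rose (Tmem97, 1.38 ± 0.10, Vldlr, 1.23 ± 0.12, and Scarb1, 0.85 ± 0.07) and 5 fell, and at E14 3 rose and 1 fell. With TORIN1 3 of 13 tested fell, led by Gramd1b (-1.48 ± 0.23), and in KO libraries 2 of 14. Of 15 genes of sterol sensing and SREBP processing, 9 rose and 1 fell with NRG1 at E13, with changes no larger than that of Erlin1 (0.59 ± 0.06), and none was called with TORIN1 (5 had an unadjusted p under 0.05 with edgeR). From E13 to E18, 5 of them rose and 6 fell, close to the shares of all genes given above.

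Of 13 genes on other branches of the mevalonate pathway, 8 rose with NRG1 at E13 and 4 at E14, led at both by Pdss1, which makes the tail of coenzyme Q (1.03 ± 0.16 and 1.29 ± 0.18). With TORIN1 1 fell, Nus1 (-0.51 ± 0.09), a subunit of the enzyme that makes dolichol precursors. Of 6 electron donor and accessory genes tested, 2 rose and 1 fell with NRG1 at each stage, and Cyb5b fell with TORIN1 (-0.62 ± 0.10). Of 6 oxysterol genes, 2 rose and 2 fell with NRG1 at E13. In lists this short these NRG1 counts, and the 4 of 13 branch genes at E14, are near the shares of all genes and are no result about the lists. Of the oxysterol genes, none of the 4 tested with TORIN1 was called (0 at an unadjusted p under 0.05 with edgeR).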

How the data were processed

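The authors deposited counts per gene in 5 tables. Per the labels' protocols, total RNA was made into libraries with a NEBNext Ultra kit. The submitters' processing notes name fastp, STAR, featureCounts and mm10, while versions, the strand setting and the treatment of multi-mapping reads are not stated in them. Gene symbols and coordinates came from GENCODE M21 (GRCm38), and 97.8% of IDs in the gland and end bud tables and 99.8% in the TORIN1 table had a symbol. Of the culture table's entries, 8 that had turned into dates (0.123% of counts) were left out, and since the table holds part of a library, its totals of 11190476 to 15400456 are not depths.

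Each table was fitted once with all its groups in edgeR 4.0.16 (R 4.3.3, limma 3.58.1), with filterByExpr, TMM and robust quasi-likelihood F tests. P-values were adjusted by Benjamini-Hochberg over all genes tested, with a threshold of 0.05. CPM were taken over the tested genes. SE is the log2 fold change divided by the square root of F. The code was tested on simulated data. Alternatives were DESeq2 1.42.0, its size factors (RLE), library size alone, no filter, only the compared groups, a replicate block, and each sample left out.

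The 28 genes, the other gene lists and the marker lists were chosen with earlier results of these data known. All 28 genes were to be named, and from each other list at most the 3 called genes with the largest change per comparison. No 2 samples of the same group had identical counts (chi-square per gene between replicates 3.43 to 228), and samples of different groups were not compared in this way. All columns were matched to samples.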

Additional observations from a re-analysis of the deposited data

Results flagged for a closer look

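Within groups of 4 samples, a sample was listed where its gap to the nearest other sample exceeded Dixon's 95% critical share of the group's range. This held for 22 of 280 gene-by-group sets, where chance gives about 5% of sets. No cause was tested.

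In whole glands, E18 D was highest for Cyp51 (230 CPM), Mvk (67.7 CPM), Pmvk (98.1 CPM) and Sqle (168 CPM) and lowest for Lss (44.9 CPM) and Npc1 (13.5 CPM). E13 A was highest for Fdps (114 CPM) and Mylip (30.6 CPM), and E14 A for Dhcr7 (55.7 CPM). E15 B was highest for Msmo1 (65.4 CPM) and Scap (123 CPM), E15 D was highest for Stard4 (70.7 CPM), and E17 C was lowest for Npc1 (25.2 CPM).

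In the 72 h epithelia, DMSO D was lowest for Ebp (34.4 CPM), Insig2 (49.3 CPM) and Mylip (61.2 CPM), and DMSO A was highest for Sqle (357 CPM). TORIN1 A was highest for Abcg1 (54.9 CPM) and lowest for Ggps1 (26.8 CPM). In E16 glands, WT 1 was highest for Dhcr7 (105 CPM) and Msmo1 (67.9 CPM), and the library KO 4 was lowest for Mvk (97.3 CPM).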

How the results depend on the processing

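Listed here is each alternative that moved a count of called genes by over 1.5 times, or a median by more than its spread between replicates; most of these medians moved by less than 1.5 times, and the causes were not tested. With only the compared groups fitted, E13 to E14 gave 2 higher and 13 lower, E16 to E17 15 higher, E14 against E13 control buds 2 higher and 1 lower, culture day 2 to 3 1 lower and day 3 to 4 7 higher, and the medians were 0.46 from E13 to E18 and 0.76 with NRG1 at E14. With library size alone, E15 to E16 gave 1 lower and a median of 0.12, E16 to E17 a median of 0.22, E17 to E18 1 higher and 9 lower with a median of -0.20, E13 to E18 a median of 0.0099, and culture day 3 to 4 6 higher with a median of 0.17. The culture medians were then 0.13 (day 2 to 3) and 0.31 (day 2 to 4), and that of NRG1 at E14 0.74. With no filter, E17 to E18 gave 1 higher and E13 to E18 a median of 0.33. With RLE factors the medians were 0.75 with NRG1 at E14, 0.12 for culture day 2 to 3 and 0.35 for day 2 to 4, and with DESeq2 they were 0.75, 0.12 and 0.35. DESeq2 called 2 genes higher with TORIN1 and 1 higher in KO libraries.

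By the rule used, the replicate letters did not pair the samples (correlations of deviations -0.435 to 0.414, in no comparison with 3 or more pairs all above 0.1). Between TORIN1 and DMSO, however, the letters A, B and D correlated at 0.345, 0.241 and 0.414, and C at -0.121. Whether those letters mark shared cultures is not stated in the sources used here. With a replicate block, E17 to E18 gave 1 higher, TORIN1 2 higher and culture day 2 to 3 1 lower, and no other count of the 28 genes moved by over 1.5 times. For single genes, the block kept 411 of 424 results on their side of the threshold, RLE 419, no filter 410, DESeq2 406, library size alone 383 and only the compared groups 277 of 312. Reversed were Fdft1 (-0.014) and Mvk (-0.13) from E13 to E18 with library size alone, which also called Abca1 (-0.41) and Acat2 (-0.55) lower. That scaling moved the median of all genes to -0.33 from E13 to E18, -0.18 from E17 to E18 and -0.15 in KO libraries.

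Over all genes, calls moved by more than 1.5 times as follows: KO 1054, against 2680 (DESeq2), 2121 (no filter) and 1659 (library size), TORIN1 873 against 1966 (DESeq2), E17 to E18 2147 against 3818 (library size) and 647 (compared groups), E16 to E17 908 against 1804, E13 to E14 3214 against 5221, control buds 3817 against 2065, culture day 3 to 4 2410 against 1517 (each with the compared groups), and the E14 minus E13 difference 367 against 815 (DESeq2).

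Leaving out 1 sample in turn gave these ranges of the median, the number higher and the number lower: E13 to E14 -0.20 to -0.16, 1 to 1 and 4 to 5; E14 to E15 -0.03 to 0.01, 8 to 11 and 7 to 9; E15 to E16 0.17 to 0.28, 7 to 10 and 0 to 0; E16 to E17 0.28 to 0.31, 3 to 8 and 0 to 0. E17 to E18 gave -0.045 to 0.021, 1 to 6 and 0 to 2, and E13 to E18 0.39 to 0.45, 15 to 17 and 6 to 8, with 26 to 28 genes differing among stages. NRG1 gave 0.64 to 0.72, 20 to 20 and 4 to 4 at E13, and 0.73 to 0.86, 20 to 21 and 3 to 4 at E14, and the difference 0.019 to 0.12, 0 to 4 and 0 to 1. Control buds gave -0.089 to 0.048, 1 to 5 and 1 to 3, TORIN1 -0.92 to -0.73, 0 to 2 and 8 to 20, and KO -0.41 to -0.32, 0 to 2 and 0 to 10. Culture gave 0.10 to 0.22, 0 to 6 and 0 to 2 for day 2 to 3, 0.18 to 0.33, 3 to 12 and 2 to 3 for day 3 to 4, and 0.42 to 0.44, 15 to 16 and 3 to 3 for day 2 to 4. Groups of 2 samples and the partial culture table limit what can be read from single steps there.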
